A study of Mus musculus with 9 samples.

Results

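The 42 genes described here belong to the glutathione and antioxidant defence of the cell. They were chosen by name, with earlier results of these data known. A gene was measured where a probe set of the array carried its symbol alone. Of the 42, 38 were measured, among 18193 measured genes. Prdx1 was read only by probe sets that carry several symbols, and Prdx5, Prdx6 and G6pdx had no probe set among those named here, so these 4 genes are not reported. Where a gene had several probe sets, the one with the highest mean over all 9 arrays stood for it.

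Total RNA from the epidermis of 9 mice was read on Affymetrix mouse arrays, with 1 array per animal. All mice were homozygous for a loxP-flanked Alox12b gene on the hairless SKH1 background (5 backcross generations), and all were injected 3 times with 1 mg of tamoxifen in sunflower oil at the age of 8 weeks. Alox12b encodes 12R-lipoxygenase, which oxidises ceramide-bound linoleate for the skin barrier. The 5 mice of the inactivated group also carried the tamoxifen-dependent Cre-ERT2 recombinase under the keratin 14 promoter, which is active in basal keratinocytes. The 4 control littermates carried no Cre, so that loss of the gene and presence of active Cre cannot be told apart. Skin was taken 6 days after the treatment, frozen, and the epidermis scraped from the dermis. The comparison asked which of these genes differed in epidermis after Alox12b had been inactivated.

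Glutathione is a tripeptide built from glutamate, cysteine and glycine. It neutralises peroxides through glutathione peroxidases and is joined to reactive lipids and xenobiotics by glutathione S-transferases. The transcription factor NRF2, encoded by Nfe2l2, is held in check by KEAP1 and drives many of these genes through antioxidant response elements when electrophiles or oxidants modify KEAP1. In skin this system protects keratinocytes against oxidised lipids, sunlight and chemicals.

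The antioxidant response element has the core TGACNNNGC, and the stretches before the start sites of 4 members are shown because they place this core in genes that rose and in genes that fell. They are the 250 bases before the start site from RefSeq (GRCm38.p6), 5′ to 3′ on the strand of the gene, with the match in capitals. Gclm lies on the plus strand (chr3:122245307-122245556) and Nfe2l2 on the minus strand (chr2:75704664-75704913). Gstm5 (chr3:107895604-107895853) and Sod1 (chr16:90220512-90220761) lie on the plus strand. In Gclm and Sod1 the match is on the opposite strand and reads GCNNNGTCA here.
Gclm: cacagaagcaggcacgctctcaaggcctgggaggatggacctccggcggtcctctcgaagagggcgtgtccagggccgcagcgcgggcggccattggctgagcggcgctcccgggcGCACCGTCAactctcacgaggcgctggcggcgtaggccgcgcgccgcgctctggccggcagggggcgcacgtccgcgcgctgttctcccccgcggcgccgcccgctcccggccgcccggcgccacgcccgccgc
Nfe2l2: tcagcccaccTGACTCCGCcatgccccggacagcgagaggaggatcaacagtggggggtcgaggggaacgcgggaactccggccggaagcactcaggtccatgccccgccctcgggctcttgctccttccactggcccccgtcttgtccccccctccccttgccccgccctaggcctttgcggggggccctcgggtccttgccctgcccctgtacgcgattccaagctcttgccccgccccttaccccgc
Gstm5: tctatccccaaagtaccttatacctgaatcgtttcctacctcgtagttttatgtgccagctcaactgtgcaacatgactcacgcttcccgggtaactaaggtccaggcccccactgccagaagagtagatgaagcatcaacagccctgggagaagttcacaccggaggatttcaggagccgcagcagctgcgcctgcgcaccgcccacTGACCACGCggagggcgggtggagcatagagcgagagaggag
Sod1: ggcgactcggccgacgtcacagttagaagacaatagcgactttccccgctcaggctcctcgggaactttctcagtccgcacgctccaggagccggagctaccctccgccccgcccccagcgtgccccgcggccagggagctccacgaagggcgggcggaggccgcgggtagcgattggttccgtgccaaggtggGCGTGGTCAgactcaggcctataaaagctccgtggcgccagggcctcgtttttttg
The match began 134 bases before the start site in Gclm, 240 in Nfe2l2, 42 in Gstm5 and 56 in Sod1. Gclm and Nfe2l2 were higher after inactivation and Gstm5 and Sod1 lower, as given below. Windows of 300 bases (250 before and 50 after the start) were available for 35 of the 42 genes, and 13 of these held the core on either strand, as did 3781 of 27025 genes. By window, the share was 31.8% of 44 windows of these genes and 12.4% of all 32851. It occurred in 4 of 12 members that were higher, 3 of 13 that were lower and 4 of 7 that did not pass. Of the members at least 2-fold higher, Slc7a11, Gsto1, Mgst2 and Gpx2 held no core. Srxn1 held it after the start site, and Gsta4 had no window. Of those at least 2-fold lower, Gsta2 and Gstm1 held no core, Gstm5 held it and Sod3 had no window. In 1 of the 13 genes, Prdx1, which has no value here, the match (TGACTCAGC) overlapped the AP-1 motif TGANTCA. A match describes letters in this window and shows no binding.

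The values are on a log2 scale, and array medians lay between 4.34 and 4.42. Differences are inactivated minus control ± SE from limma, over 5 and 4 arrays, and a gene passed at an adjusted p under 0.05 (Benjamini-Hochberg over all 45037 probe sets). Precision is set by the 9 arrays, and the level of one probe set is not comparable with that of another. Keratinocyte markers read high on the scale, with array means of 10.67 to 11.09 and 10.81 to 10.91 for 5 basal markers in the inactivated and control groups. Among these 5, Krt14 rose by 0.47 ± 0.06, Col17a1 fell by 0.91 ± 0.14 and 3 did not pass. Of 6 suprabasal markers, Dsc1 rose by 0.64 ± 0.08 and 5 did not pass. Over all genes 34.4% passed. Along the main axis of variation (63.4% of the variance) the groups lay apart, and inactivated replicate 5 was the one nearest to the controls. The Alox12b probe set rose by 0.61 ± 0.14 (adjusted p = 0.00694). Its place relative to the floxed part is not given in the sources used here, so it does not check the deletion.

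Markers of several other cell types differed between the groups. For comparison, 15.5% of all genes were higher and 18.9% lower. Of genes above the median probe set level, 18.8% were higher and 27.4% lower. All 7 measured fibroblast markers fell, with mean levels of 9.56 to 10.34 on the inactivated arrays and 10.58 to 11.22 on the controls. Of the macrophage markers 5 of 8 fell (8.33 to 9.13 against 9.19 to 9.49), of the Langerhans cell markers 3 of 5 (9.02 to 9.87 against 9.80 to 10.00), and of the T cell markers 4 of 5 (5.62 to 6.03 against 6.77 to 7.12). Thy1, which fell by 1.57 ± 0.16, is in both the fibroblast and the T cell list, so that these counts are not separate. Endothelium markers overlapped between the groups (4.99 to 5.88 against 5.27 to 5.85), with 1 of 5 higher, 1 lower and 3 not passing. Neutrophil markers were dim and lay higher (4.19 to 4.58 against 3.96 to 3.98), with 2 of 5 passing, Mmp8 and Cxcr2. That share, 40%, was near the 34.4% of all genes that passed. All 5 melanocyte markers rose, from 3.40 to 3.73 on the controls to 4.66 to 6.28. Inactivated replicate 4 stood out with a mean of 7.06 for 6 skeletal muscle markers, against 3.25 to 4.48 on the other inactivated arrays, and with 6.92 for 4 adipocyte markers, against 3.94 to 4.98. Hair follicle markers read 5.63 and 6.03 on inactivated replicates 3 and 4, against 4.23 to 4.81 on the other inactivated arrays and 4.31 to 4.45 on the controls. In RNA of scraped epidermis, fewer cells of a type and less RNA per cell cannot be told apart. Nor can a different amount of tissue carried over from beneath the epidermis be told apart from these.

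**Figure D1:**
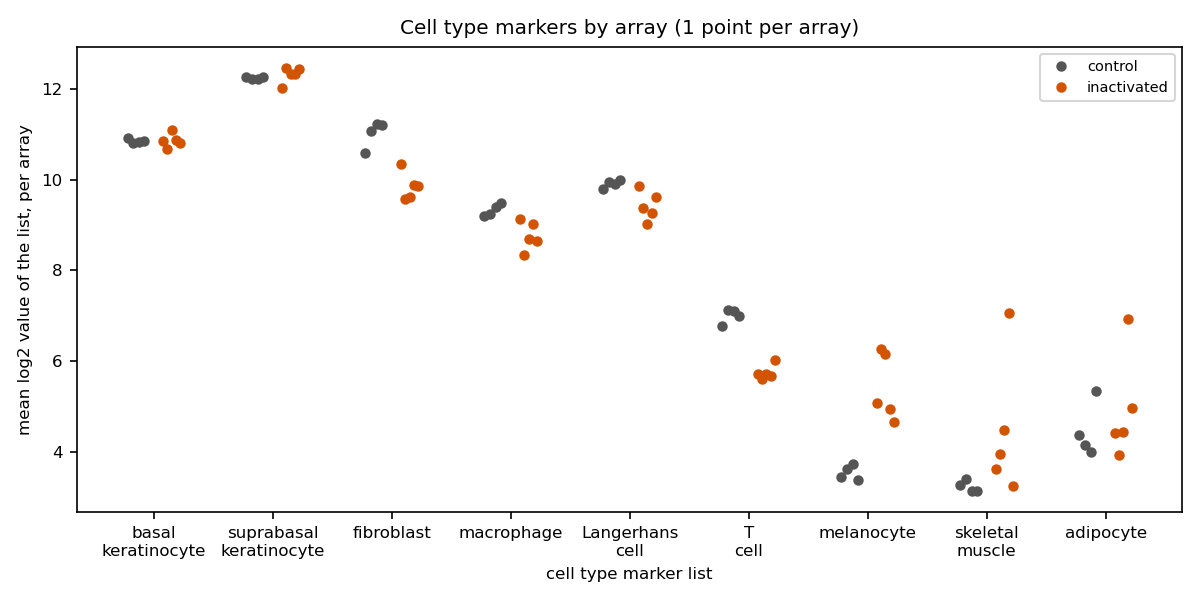
Mean log2 value of cell type marker lists on each array (vertical axis), with 1 point per array, 4 control arrays in grey and 5 inactivated arrays in orange. The lists are basal and suprabasal keratinocyte, fibroblast, macrophage, Langerhans cell, T cell, melanocyte, skeletal muscle and adipocyte. The neutrophil, endothelium and hair follicle lists are not drawn. Fibroblast, macrophage and T cell lists lie lower and the melanocyte list higher on the inactivated arrays, and 1 inactivated array stands out for skeletal muscle (7.06) and adipocyte markers (6.92).

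Of the 38 genes, 13 rose (34.2%), 15 fell (39.5%) and 10 did not pass. Over all genes 15.5% were higher and 18.9% lower, 34.4% in all. All but 1 of the 38 lay above the median probe set level of 4.40, and of the 11378 genes above it 18.8% were higher and 27.4% lower, 46.2% in all. The median difference was -0.21 over the 38 genes and 0.03 over all genes. At least 2-fold changes were seen in 6 higher and 4 lower members, where the background was 2.43% and 3.34%. The groups did not overlap in 25 of the 38 genes (65.8%), against 31.6% of all genes. Because the genes were chosen with earlier results of these data known, the choice itself may raise their shares above the background.

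**Figure D2:**
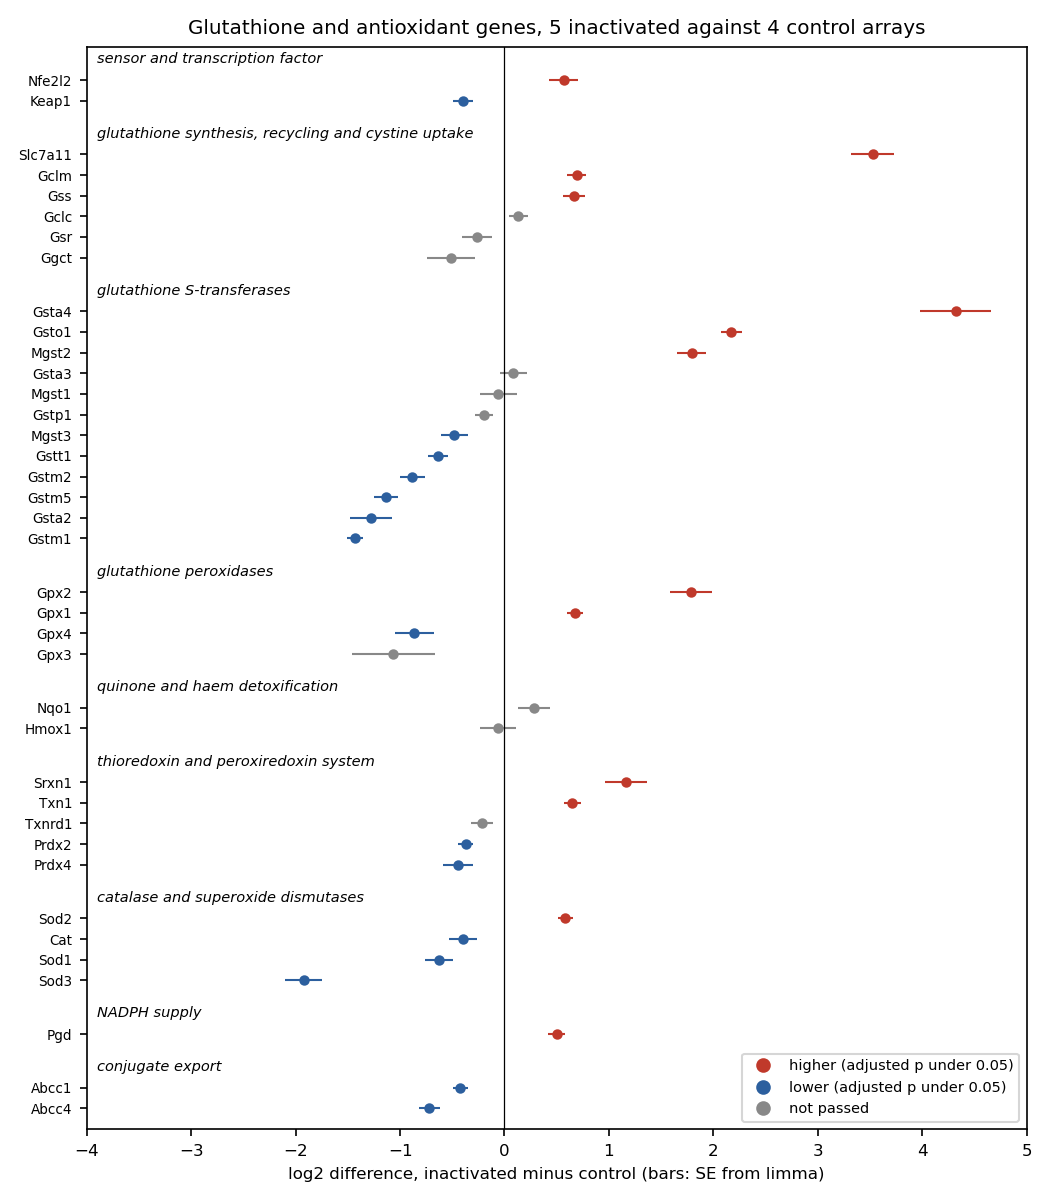
Log2 difference, inactivated minus control, of the 38 measured genes ordered by role (horizontal axis; bars are the SE from limma, 5 and 4 arrays). Gsta4 (4.32) and Slc7a11 (3.52) lie farthest to the right and Sod3 (-1.92) farthest to the left, and the transferases, peroxidases, thioredoxin system and dismutases each hold genes on both sides of 0.

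The regulator and its inhibitor went in opposite directions. Nfe2l2 (probe set 1416543_at) read 9.30, 9.03, 9.18 and 9.25 on the control arrays and 9.72, 9.96, 9.26, 9.97 and 9.87 on the inactivated arrays. Inactivated replicate 3 lay within the controls, and the other 4 lay above them. The difference was 0.57 ± 0.14, or 1.48-fold (adjusted p = 0.0120). A second, dimmer probe set (1457117_at) gave 1.55 ± 0.73 and did not pass (adjusted p = 0.140). On it the inactivated arrays read 5.48, 4.29, 8.26, 3.75 and 4.89, against 3.64 to 3.96 on the controls. Replicate 3 was highest there and replicate 4 lay within the controls, so the probe sets differed in which arrays read highest.

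Keap1 (1450746_at), the adaptor that marks NRF2 for degradation, read 7.83, 7.68, 7.71 and 7.82 on the controls and 7.19, 7.46, 7.25, 7.32 and 7.60 on the inactivated arrays. The groups did not overlap, and replicate 5 was nearest to the controls. Keap1 fell by 0.40 ± 0.09 (adjusted p = 0.00876). Its other probe set (1450747_at) fell by 1.15 ± 0.10 (adjusted p = 3.50e-05). Both transcripts are read as RNA only, and NRF2 is controlled mainly at the protein level.

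Among 13 partners and regulators of NRF2, 3 were higher, 3 lower and 7 did not pass, with a median difference of -0.10. The share that passed, 46.2%, equalled that of all genes above the median level and compares with 34.4% of all genes. Maff, a small MAF protein that pairs with NRF2, rose by 1.06 ± 0.15 (adjusted p = 0.000636), while its relative Mafg fell by 0.38 ± 0.08 (adjusted p = 0.00506). Of the related factors, Nfe2l1 fell by 0.67 ± 0.07 (adjusted p = 0.000105) and Nfe2l3 rose by 0.63 ± 0.13 (adjusted p = 0.00416).

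Of the 6 members that take up cystine or make and recycle glutathione, Slc7a11, Gclm and Gss rose, none fell and 3 did not pass. The 50% that passed lay near the 46.2% of genes above the median level and compares with 34.4% of all genes. Slc7a11 (1420413_at), the cystine importer xCT that supplies cysteine, read 3.94, 4.03, 2.98 and 3.80 on the control arrays, below the median probe set. On the inactivated arrays it read 7.22, 7.29, 7.39, 7.39 and 6.79. The groups were far apart, and replicate 5 was the lowest of its group. Slc7a11 rose by 3.52 ± 0.21, or 11.5-fold (adjusted p = 2.93e-06), and a second probe set (1443536_at) rose by 3.86 ± 0.18. Slc7a11 is also known as a gene of melanocytes, where it supplies cystine for pigment. All 5 melanocyte markers rose on the same arrays, among them Dct by 2.78 ± 0.39 (adjusted p = 0.000521). Their part in the Slc7a11 value was not tested. Slc3a2, the heavy chain that carries xCT to the membrane, differed by 0.28 ± 0.11 and did not pass (adjusted p = 0.0754).

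Gclm, the modifier subunit of the rate-limiting ligase of glutathione synthesis, read 7.69 ± 0.13 (SD, n = 5) after inactivation, and control mice read 6.99 ± 0.13 (SD, n = 4). Gclm rose by 0.69 ± 0.09 (adjusted p = 0.000316). A dimmer Gclm probe set (1439050_at) gave 0.33 ± 0.13 and did not pass (adjusted p = 0.0937). The catalytic subunit Gclc differed by 0.13 ± 0.09 and did not pass (adjusted p = 0.310), with a 95% interval from -0.07 to 0.33. Glutathione synthetase (Gss), which adds glycine, rose by 0.67 ± 0.10 (adjusted p = 0.000951). Glutathione reductase (Gsr), which returns oxidised glutathione to its reduced form, differed by -0.27 ± 0.14 (adjusted p = 0.193), and its other probe set by -0.35 ± 0.12 (adjusted p = 0.0440). Ggct, which breaks down gamma-glutamyl amino acids, differed by -0.51 ± 0.23 and did not pass (adjusted p = 0.125). Its groups did not overlap, and inactivated replicate 1 stood lowest at 10.07. Both dimmer Ggct probe sets passed, with -1.09 ± 0.37 and -1.11 ± 0.34.

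The wider list of glutathione enzymes and transporters had 5 of 25 genes higher, 7 lower and 13 not passing, with a median of 0.07. The 48.0% that passed lay near the 46.2% of genes above the median level and compares with 34.4% of all genes. Cth, which makes cysteine from cystathionine, rose by 1.39 ± 0.14 (adjusted p = 7.70e-05). Cbs, the step before it, fell by 1.19 ± 0.14 (adjusted p = 0.000193). Oplah, which recycles oxoproline to glutamate, fell by 1.13 ± 0.13 (adjusted p = 0.000114), and the mitochondrial and peroxisomal transferase Gstk1 fell by 0.97 ± 0.16 (adjusted p = 0.00140).

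The glutathione S-transferases divided, with 3 of 12 higher, 6 lower and 3 not passing. Of these 75% passed, against 34.4% of all genes and 46.2% of those above the median level. Gsta4 (1416368_at), an alpha-class enzyme that conjugates 4-hydroxynonenal from peroxidised lipid, read 6.32, 5.42, 5.31 and 6.15 on the controls. On the inactivated arrays Gsta4 read 9.16, 9.71, 10.83, 10.67 and 10.25. No array of the groups overlapped, and both groups spread widely. At 4.32 ± 0.34, or 20.0-fold (adjusted p = 1.52e-05), this rise was the largest of the 38 genes. Another alpha-class gene, Gsta2 (1421040_a_at), read 8.04, 7.84, 8.10 and 7.61 on the controls and 7.26, 6.83, 6.45, 6.17 and 6.38 on the inactivated arrays. Here the inactivated arrays were all below the controls, with replicate 1 nearest to them. Gsta2 fell by 1.28 ± 0.20 (adjusted p = 0.000977). Gsta3 was dim in both groups (3.06 ± 0.25, SD, n = 5, and 2.98 ± 0.17, SD, n = 4) and differed by 0.08 ± 0.13 (adjusted p = 0.666).

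Gsto1 (1416531_at), an omega-class enzyme with thioltransferase activity, read 9.23, 8.95, 8.77 and 8.89 on the controls and 11.11, 11.22, 11.25, 11.11 and 10.98 on the inactivated arrays. The 5 inactivated arrays lay close together and well above the controls. Gsto1 rose by 2.17 ± 0.10, or 4.50-fold (adjusted p = 6.79e-07), and its second probe set by 2.08 ± 0.09. Mgst2 (1452592_at), a microsomal enzyme that can also form leukotriene C4, read 6.98, 6.44, 6.34 and 6.41 on the controls. On the inactivated arrays Mgst2 read 8.42, 8.12, 8.48, 8.20 and 8.45. Control replicate 1 stood above the other controls, yet below all inactivated arrays. Mgst2 rose by 1.79 ± 0.14, or 3.46-fold (adjusted p = 1.19e-05).

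The mu-class members Gstm1, Gstm2 and Gstm5 fell, while other genes of the class rose or did not pass. In the wider glutathione list, and named after their values were seen, Gstm6 rose by 0.85 ± 0.17 (adjusted p = 0.00412) and Gstm3 rose by 0.32 ± 0.10 (adjusted p = 0.0292). Gstm4 (0.09 ± 0.07) and Gstm7 (0.16 ± 0.08) did not pass. Gstm1 (1416416_x_at) read 8.09, 8.17, 8.09 and 8.11 on the controls and 6.62, 6.61, 6.63, 6.63 and 6.92 on the inactivated arrays. Both groups were tight, with replicate 5 above the other inactivated arrays. The fall in Gstm1 was 2.70-fold (-1.43 ± 0.08, adjusted p = 2.02e-06). Gstm5 (1416842_at) read 9.36, 9.29, 9.34 and 9.30 on the controls and 7.83, 8.32, 8.11, 8.19 and 8.50 on the inactivated arrays. Again no inactivated array reached the controls. Gstm5 fell by 1.13 ± 0.12 (adjusted p = 7.47e-05) and Gstm2 by 0.88 ± 0.12 (adjusted p = 0.000400). Mu-class genes are close copies that can share probes. Of the 3 other Gstm1 probe sets, 1448330_at fell by 1.46 ± 0.10, 1425627_x_at fell by 0.63 ± 0.09, and 1425626_at differed by -0.14 ± 0.07 without passing.

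Gstt1, a theta-class enzyme, fell by 0.64 ± 0.10 (adjusted p = 0.000864), and Mgst3, a microsomal transferase with peroxidase activity, fell by 0.48 ± 0.13 (adjusted p = 0.0173). The Mgst3 groups overlapped at replicate 5, and a dim second probe set read 0.03 ± 0.09. Gstp1, the pi-class enzyme abundant in epithelia, differed by -0.19 ± 0.08 (adjusted p = 0.112). Mgst1, a microsomal enzyme that conjugates and reduces lipid peroxides, differed by -0.06 ± 0.18 (adjusted p = 0.824), with a 95% interval from -0.45 to 0.33. The exporters of glutathione conjugates and other organic anions were both lower. Abcc4 (1443870_at) read 8.01, 8.11, 8.21 and 8.31 on the controls and 7.64, 7.35, 7.33, 7.26 and 7.62 on the inactivated arrays. The groups did not overlap. Abcc4 fell by 0.72 ± 0.10 (adjusted p = 0.000542) and Abcc1, which carries leukotriene C4, by 0.42 ± 0.07 (adjusted p = 0.00184).

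**Figure D3:**
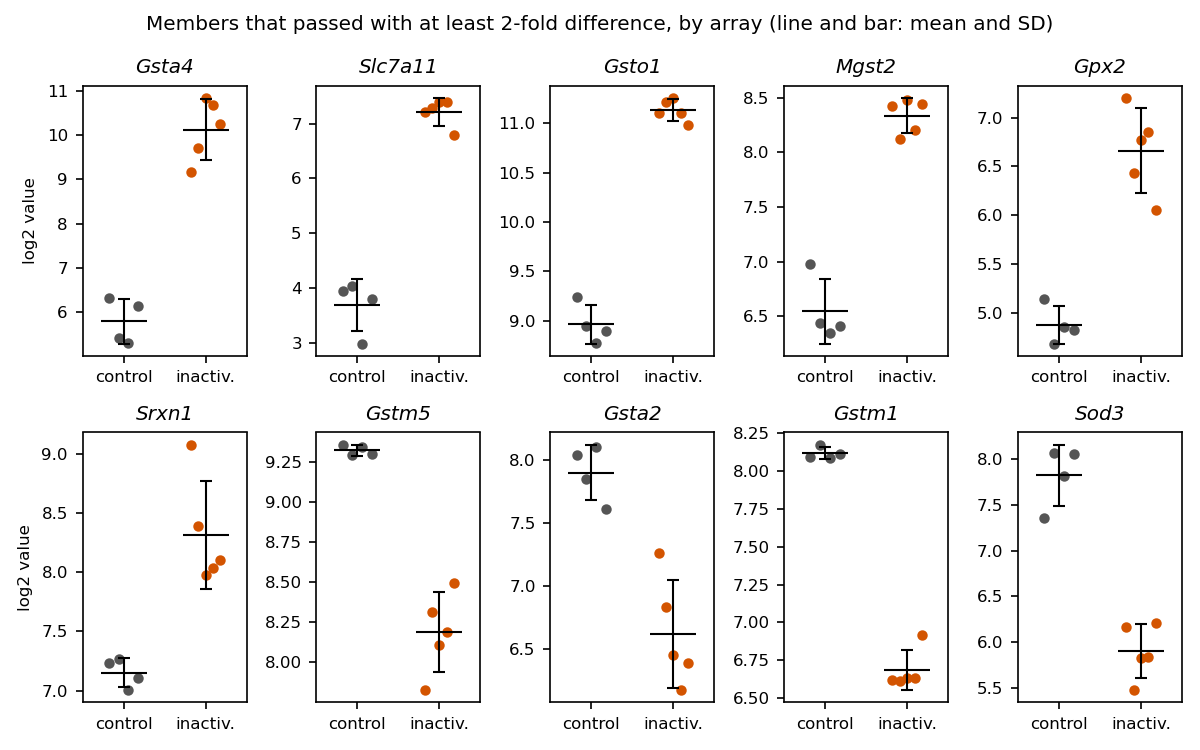
Log2 value on each array (vertical axis, 1 scale per gene) of the 10 members that passed with at least a 2-fold difference; points are arrays (4 control, 5 inactivated), and the line and bar are the group mean and SD. In each of these genes the groups are separate, for example Gsta4 with controls at 5.31 to 6.32 and inactivated arrays at 9.16 to 10.83.

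Glutathione peroxidases, selenium or cysteine enzymes that reduce peroxides, had 2 of 4 members higher and 1 lower. Of these 4 genes 75% passed, against 34.4% of all genes and 46.2% of those above the median level. Gpx2 (1449279_at), an epithelial isoform, read 5.14, 4.68, 4.85 and 4.82 on the controls and 7.20, 6.43, 6.78, 6.85 and 6.05 on the inactivated arrays. Replicate 5 was lowest of the inactivated arrays and still above the controls. Gpx2 rose by 1.79 ± 0.20, or 3.46-fold (adjusted p = 0.000121). Gpx1 (1460671_at), the cytosolic isoform, read 11.68, 11.56, 11.52 and 11.67 on the controls and 12.27, 12.43, 12.29, 12.27 and 12.16 on the inactivated arrays. The groups did not overlap, and Gpx1 was bright on all 9 arrays. Gpx1 rose by 0.67 ± 0.07 (adjusted p = 0.000110).

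Gpx4, the isoform that reduces lipid hydroperoxides within membranes, read 9.39 ± 0.43 (SD, n = 5) after inactivation against 10.25 ± 0.11 (SD, n = 4). Gpx4 fell by 0.86 ± 0.19 (adjusted p = 0.00666), and the second Gpx4 probe set also fell, by 0.60 ± 0.16. Gpx3, the secreted plasma isoform, read 8.07, 8.58, 8.56 and 8.88 on the controls and 7.65, 6.13, 7.61, 8.64 and 7.27 on the inactivated arrays. Inactivated replicate 4, the array with high muscle and adipocyte markers, lay among the controls and the other 4 lay below them. Over all arrays Gpx3 differed by -1.06 ± 0.39 and did not pass (adjusted p = 0.0674). It passed in only 1 of the 9 omissions of a single array, that of inactivated replicate 4 (-1.36, adjusted p = 0.0125). Across the 9 omissions the difference ran from -1.36 to -0.73 and the adjusted p from 0.0125 to 0.164. Named after their values were seen, Gpx7 and Gpx8, peroxidases of the endoplasmic reticulum, fell by 1.30 ± 0.23 (adjusted p = 0.00178) and 0.97 ± 0.20 (adjusted p = 0.00465).

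Of the superoxide dismutases, which convert superoxide to hydrogen peroxide, the mitochondrial enzyme rose and the others fell. Sod2 was 9.77 ± 0.08 (SD, n = 5) against 9.18 ± 0.08 (SD, n = 4) and rose by 0.58 ± 0.07 (adjusted p = 0.000196). A further Sod2 probe set (1417193_at) rose by 0.53 ± 0.10, while 1454976_at and 1417194_at gave 0.06 ± 0.11 and -0.11 ± 0.12 and did not pass. The cytosolic enzyme Sod1 fell by 0.63 ± 0.13 (adjusted p = 0.00572).

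Extracellular Sod3 (1417633_at) read 7.36, 8.07, 7.82 and 8.05 on the controls and 6.16, 5.47, 5.82, 5.84 and 6.21 on the inactivated arrays. All inactivated arrays lay below all controls, and control replicate 1 was lowest of its group. Sod3 showed the largest fall of the 38 genes, 3.79-fold (-1.92 ± 0.18, adjusted p = 4.01e-05), and its second probe set fell by 1.54 ± 0.16. All 7 fibroblast markers fell on the same arrays, with a median of -1.01, and control replicate 1 also had the lowest fibroblast level of the controls (10.58). Their part in the Sod3, Gpx3, Gpx7 and Gpx8 values was not tested, nor was that of the muscle and adipocyte markers in Gpx3. Catalase (Cat), which splits hydrogen peroxide in peroxisomes, fell by 0.40 ± 0.13 (adjusted p = 0.0454). The Cat groups overlapped, and the call was lost without inactivated replicate 1, 2, 3 or 5 or control replicate 2, 3 or 4 (adjusted p = 0.0543 to 0.131). The other Cat probe set (1416430_at) gave -0.33 ± 0.13 and did not pass (adjusted p = 0.0892).

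In the thioredoxin system, which reduces protein disulphides and feeds peroxiredoxins, 2 of 5 measured members rose and 2 fell. Of these 5 genes 80% passed, against 34.4% of all genes and 46.2% of those above the median level. Srxn1 (1426875_s_at), sulfiredoxin, which repairs overoxidised peroxiredoxins, read 7.23, 7.27, 7.004 and 7.11 on the controls. On the inactivated arrays Srxn1 read 9.08, 8.39, 7.98, 8.03 and 8.10. Replicate 1 was the highest, and all 5 lay above the controls. Srxn1 rose by 1.16 ± 0.20, or 2.24-fold (adjusted p = 0.00166), and its 3 other probe sets rose by 0.55 to 1.52. Thioredoxin itself, Txn1 (1416119_at), read 10.95, 10.77, 10.59 and 10.90 on the controls and 11.52, 11.43, 11.45, 11.37 and 11.49 on the inactivated arrays. The inactivated arrays formed a narrow band above the controls. Txn1 rose by 0.65 ± 0.08 (adjusted p = 0.000284).

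Its reductase Txnrd1 differed by -0.22 ± 0.11 and did not pass (adjusted p = 0.164). The peroxiredoxin Prdx2, a cytosolic peroxidase, fell by 0.37 ± 0.07 (adjusted p = 0.00297). A dimmer Prdx2 probe set (1430979_a_at) gave -1.06 ± 0.49 and did not pass (adjusted p = 0.134). Prdx4, the peroxiredoxin of the endoplasmic reticulum, fell by 0.44 ± 0.14 (adjusted p = 0.0378), with overlapping groups. That call was lost without inactivated replicate 2, 3 or 4 or control replicate 2, 3 or 4 (adjusted p = 0.0576 to 0.102), and none of the 3 other Prdx4 probe sets passed.

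A further 19 genes of thioredoxins, glutaredoxins and methionine sulfoxide reductases had 5 higher, 7 lower and 7 not passing (median -0.13). Of these 63.2% passed, against 34.4% of all genes and 46.2% of those above the median level. Glrx, the glutaredoxin that removes glutathione from proteins, rose by 1.23 ± 0.07 (adjusted p = 2.99e-06), and mitochondrial Prdx3 rose by 0.87 ± 0.10 (adjusted p = 0.000133). The sestrin Sesn1, a stress-induced regulator of metabolism, fell by 1.43 ± 0.22 (adjusted p = 0.000857), and the thioredoxin-like Txnl1 fell by 0.47 ± 0.08 (adjusted p = 0.00133).

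Neither member of quinone and haem detoxification, Nqo1 or Hmox1, passed. Nqo1 (1423627_at), a quinone reductase, read 5.42, 5.57, 5.31 and 5.54 on the controls and 6.26, 5.33, 5.79, 5.67 and 5.68 on the inactivated arrays. Replicate 1 stood highest and replicate 2 within the controls. Nqo1 differed by 0.28 ± 0.16 (adjusted p = 0.197), with a 95% interval from -0.06 to 0.63. Hmox1, haem oxygenase 1, was 7.64 ± 0.29 (SD, n = 5) against 7.70 ± 0.32 (SD, n = 4), a difference of -0.06 ± 0.17 (adjusted p = 0.826; 95% interval from -0.45 to 0.33). Neither interval reaches a 2-fold change.

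Pgd (1437380_x_at), which makes NADPH in the pentose phosphate pathway, read 9.97, 10.12, 10.18 and 10.23 on the controls and 10.71, 10.51, 10.59, 10.75 and 10.56 on the inactivated arrays. The groups did not overlap. Pgd rose by 0.50 ± 0.08 (adjusted p = 0.00124), and its 3 other probe sets passed in the same direction. Among 24 further genes listed as NRF2 targets, 5 were higher, 4 lower and 15 did not pass, with a median of 0.06. The aldo-keto reductase Akr1b8 rose 4.02-fold (2.01 ± 0.19). The list also held Hmox2, which is the constitutive haem oxygenase and not a typical NRF2 target. Hmox2 rose by 0.37 ± 0.07 (adjusted p = 0.00254) and is counted among the 5. The biliverdin reductase Blvrb fell by 0.92 ± 0.09 (adjusted p = 4.39e-05) and the transporter Abcc5 by 0.61 ± 0.11 (adjusted p = 0.00214). The share that passed in this list, 37.5%, was near the 34.4% of all genes and below the 46.2% of those above the median level.

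Of 12 measured genes for oxidant-producing enzymes, 3 rose, 4 fell and 5 did not pass. The share that passed was 58.3%, against 34.4% of all genes and 46.2% of those above the median level. Duox1, an epithelial NADPH oxidase that releases hydrogen peroxide, rose 6.00-fold (2.59 ± 0.18, adjusted p = 6.52e-06). Its maturation factor Duoxa1 rose 5.71-fold (2.51 ± 0.13, adjusted p = 1.12e-06), and xanthine dehydrogenase (Xdh) rose by 1.23 ± 0.08 (adjusted p = 6.59e-06). The phagocyte oxidase subunit Cyba fell by 0.64 ± 0.17 (adjusted p = 0.0177) and, named after its value was seen, Cybb by 1.04 ± 0.31 (adjusted p = 0.0295). Macrophage markers fell in 5 of 8 genes on these arrays, and their part in the phagocyte oxidase values was not tested.

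**Figure D4:**
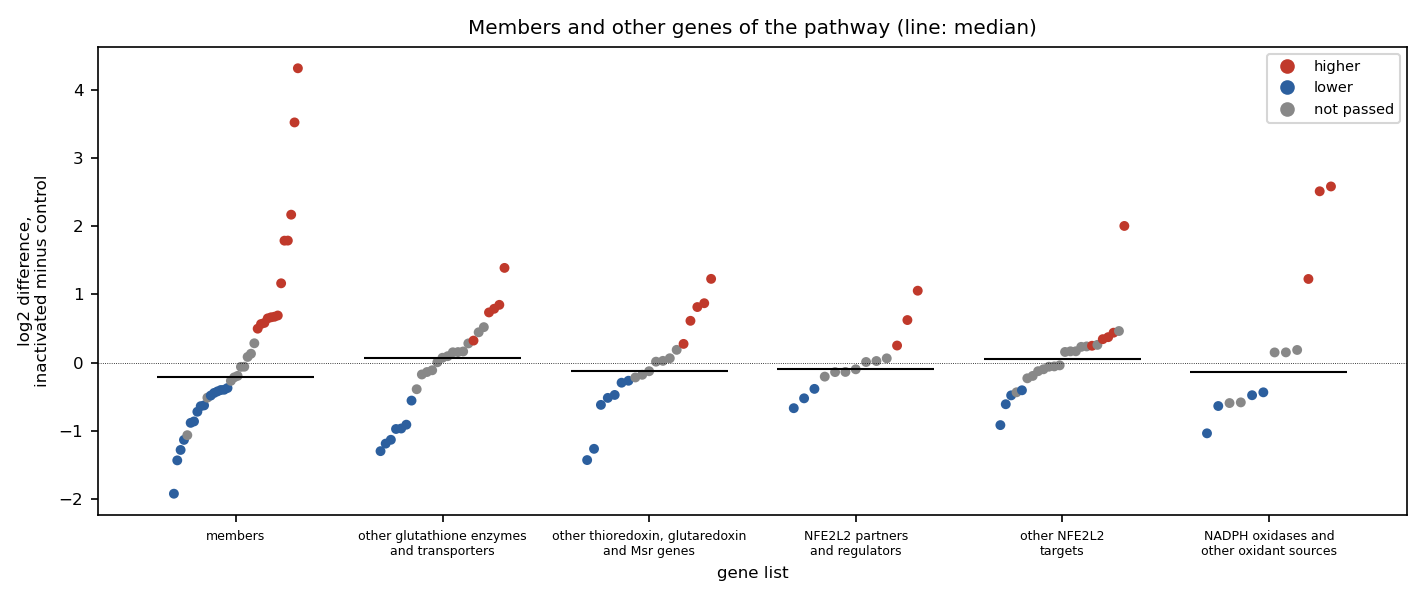
Log2 difference, inactivated minus control (vertical axis), of the 38 members and of the genes in 5 other lists of the pathway, 1 point per gene, coloured by whether it passed; the line is the median of the list. The medians lie between -0.21 and 0.07, with genes that passed on both sides of 0 in each list.

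Across arrays, inactivated replicate 5 was the one closest to the control mean in 17 of the 28 members that passed and the farthest in 0 of them. Over all 6250 genes that passed it was closest in 40.9%. Without it 13 members were higher and 14 lower. The farthest array was replicate 3 in 12 members, replicate 1 in 7, replicate 4 in 5 and replicate 2 in 4.

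**Figure D5:**
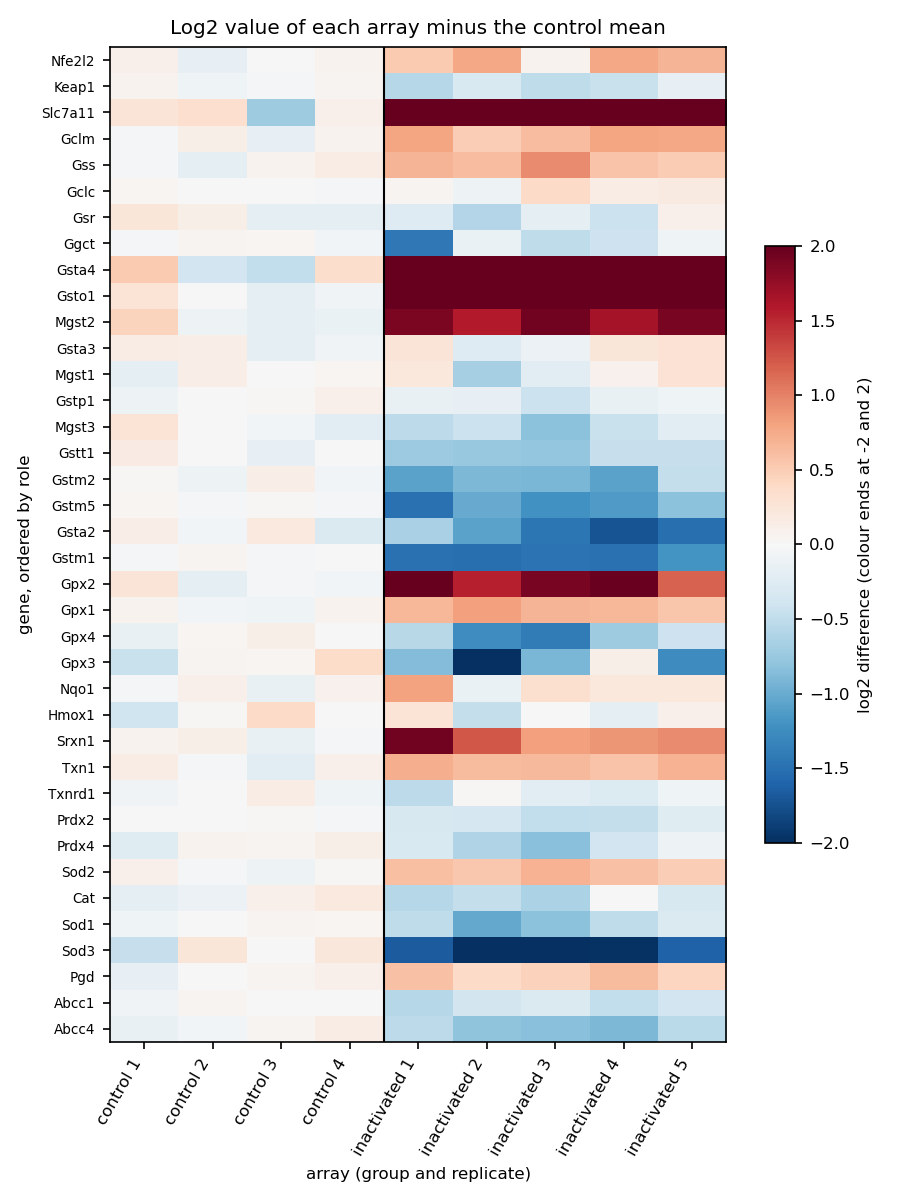
Log2 value of each array minus the control mean for the 38 genes (rows, ordered by role) on 4 control and 5 inactivated arrays (columns); red is above and blue below the control mean, and the colour ends at -2 and 2. Slc7a11, Gsta4 and Gsto1 are dark red on all 5 inactivated arrays, and inactivated replicate 5 is paler than the others for Keap1, Gstm2 and Gpx2.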

How the data were processed

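RNA of each of the 9 samples was labelled with a 3' in vitro transcription kit, per the labels' protocols. The authors deposited 1 table of log2 values for 45037 probe sets of the Affymetrix Mouse Genome U430 2.0 array. Per the submitters' processing notes affy was used, with no version. How background was corrected and values were normalised and summarised is not given in the sources used here. The base of the logarithm is also unstated, and was taken as 2 because the highest values (13.47 to 13.53) exceed 11.1, the natural log of the scanner's limit. Such values are compressed at both ends of the scale, which understates folds there.

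Names came from the platform annotation, in which 34945 probe sets had 1 symbol, 932 several, and 9160 were not listed. The groups were compared with limma 3.58.1 in R 4.3.3 (lmFit and eBayes, two-sided, no covariate, no filter), with Benjamini-Hochberg adjustment over all probe sets. The procedure was tested on simulated data in which 200 of the 45037 probe sets were changed. It recovered 44% of log2 differences of 0.5 and 88.8% of those of 1, and 6.46% of the calls were false. Far more genes passed here than were changed in the simulation, so these rates may not hold for these data. The labels call the replicates biological. The members and gene lists were chosen with earlier results of these data known. All measured members are named. Members that passed with at least a 2-fold difference, Nfe2l2, Keap1 and the member with the lowest adjusted p in each role are given array by array, and Gpx3 was added after its values were seen. From each pathway list the 4 passing genes with the lowest adjusted p are named. The labels give no sex, so a covariate for it was taken from Xist and Y-linked genes. Alternatives were other normalisations, dim filters, priors, weights, covariates, probe set choices, a stricter threshold (0.01), and the omission of single arrays.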

Additional observations from a re-analysis of the deposited data

Results flagged for a closer look

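In 6 of 76 groups of arrays (38 genes in each of the 5 inactivated and 4 control arrays), 1 array stood outside the rest by Dixon's criterion, which chance alone meets in about 1 of 20 groups. Inactivated replicate 5 stood apart in 3 of them and lay towards the controls each time. Slc7a11 read 6.79 on it, next to 7.22 on the nearest array, Gstm1 6.92 next to 6.63, and Gstm2 7.08 next to 6.66. Gstp1 read 9.57 on inactivated replicate 3, below the 9.84 of the next array. Control replicate 1 stood apart for Mgst2 (6.98 next to 6.44) and for Prdx4 (7.58 next to 7.88). Of these genes, Slc7a11, Gstm1, Gstm2 and Mgst2 passed with each of the 9 arrays left out in turn, and Prdx4 passed in 3 of the 9.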

How the results depend on the processing

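Across 20 alternatives, 13 members were higher in all but 1, and 12 to 15 were lower. At a threshold of 0.01 both counts were 12. Leaving out each array in turn gave 13 higher members and 13 to 15 lower. Of the 28 members that passed, 23 passed in every alternative with the same direction. Calls were lost in 26 of 759 comparisons of a gene with an alternative, 22 of them for Cat and Prdx4; the others were Mgst3 and Prdx2 with the mean of all probe sets, and Nfe2l2 and Mgst3 at 0.01. With sex (3 of 5 inactivated and 1 of 4 control mice female) as a covariate 13 members were higher and 13 lower, Cat and Prdx4 being lost (adjusted p = 0.0652 and 0.0779). Ggct passed with the mean of all probe sets (-0.91, adjusted p = 0.0464). Signs turned only in members that did not pass. Hmox1 gave 0.00045 after quantile normalisation and -0.19 to 0.067 with single arrays left out, and Mgst1 gave 0.015 with the mean of all probe sets and -0.15 to 0.090 with single arrays left out. The cause was not tested. With the replicate number as a block, 13 members were higher and 15 lower. Same-numbered mice share only a number. Low signal over background limits Gsta3, the only member whose mean lay below the median probe set level, and the fold of Slc7a11, which read below that level on all 4 controls.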

Other observations

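Some gene groups that border on glutathione metabolism were listed after the values above had been seen, and are given as values only. Of 21 measured ATF4 and amino acid response genes, 10 were higher, 2 lower and 9 did not pass. The 57.1% that passed compares with 34.4% of all genes and 46.2% of those above the median probe set level. Stc2, a secreted glycoprotein, rose by 1.08 ± 0.13, the amino acid transporters Slc7a5 and Slc7a1 by 0.83 ± 0.15 and 0.60 ± 0.10, Shmt2 and Mthfd2 of mitochondrial one-carbon metabolism by 0.76 ± 0.11 and 0.55 ± 0.10, and Atf4 itself by 0.33 ± 0.07. Ddit3 (CHOP) fell by 0.52 ± 0.12 and the glycine transporter Slc6a9 by 0.85 ± 0.12.

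The metallothioneins, small cysteine-rich metal binders, differed among themselves. Mt2 rose by 0.76 ± 0.14 and Mt1 by 0.70 ± 0.17, whereas Mt4, the form of stratified epithelium, fell by 3.40 ± 0.18. Mt3 differed by 0.22 ± 0.08 and did not pass (adjusted p = 0.0755). Of these 4 genes 75% passed, against 34.4% of all genes and 46.2% of those above the median level. Among aldehyde dehydrogenases and aldo-keto reductases, 5 of 14 were higher and 2 lower, so that 50% passed. That share was near the 46.2% of genes above the median level and compares with 34.4% of all genes. Aldh1a3, which makes retinoic acid, rose by 1.47 ± 0.25 and Akr1c18 by 1.34 ± 0.14, while Aldh3a1 fell by 1.84 ± 0.18 and Aldh1a1 fell by 1.64 ± 0.38. Of 18 listed genes for selenoproteins and selenium handling, 7 were measured, of which 1 was higher, 2 lower and 4 did not pass. The 42.9% that passed lay between the 34.4% of all genes and the 46.2% of those above the median level. Sephs2, a selenophosphate synthetase, rose by 0.60 ± 0.11, the selenium carrier Selenop fell by 0.89 ± 0.14 and the binding protein Selenbp1 fell by 1.49 ± 0.18.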
